A study of Homo sapiens with 28 samples.

Results

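The JUND peaks of GP5d cells were compared between a control small interfering RNA (siRNA) and an siRNA against RAD21. GP5d is an established human colon adenocarcinoma line. All rows of both JUND peak lists were used, 16997 peaks of the 393268 in the 22 peak lists of the series. The control siRNA list held 4678 peaks and the RAD21 siRNA (siRAD21) list 12319. A peak is a region where sequenced fragments (tags) recovered with an antibody exceeded a background library made with immunoglobulin G (IgG). Each siRNA was transfected at 50 nM, with a neutral siRNA of no target as control, and cells were harvested after 72 hours. RAD21 is a core subunit of cohesin, a ring-shaped complex that joins sister chromatids after replication and folds chromatin into loops. Every target was measured in 1 library per siRNA, so no difference between the siRNAs had a replicate check, and no test between them was made. The group of each library came from its title, which matches its description. The separate siRNA tags of the siRAD21 JUND, NIPBL and H3K4me1 libraries name differently numbered RAD genes, in conflict with both. Whether RAD21 was depleted was not measured here, and the labels do not say whether tags of several preparations were pooled in a library, although the file headers place the JUND and IgG input in a directory called merged.

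JUND is a member of the JUN family. It binds DNA as a dimer with another JUN, FOS or ATF protein, together called activator protein 1 (AP-1), and AP-1 sites are common in active enhancers of epithelial cells. Unlike JUN and FOS, JUND is made at steady levels in many resting cells, and it is known to slow proliferation in several of them. The other targets of the series were the cohesin subunits RAD21 and SMC3, the cohesin loader NIPBL, the loop anchor CTCF and the enhancer mark H3K4me1. They also included the intestinal factors HNF4A and KLF5, the growth regulator MYC, the repressor REST of neuronal genes and RFX2, a regulator of cilium genes. The labels' antibody number for H3K4me1 is known for general histone H3, so H3K4me1 values carry that doubt.

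The JUND libraries differed in depth and in their IgG background. After removal of repeated positions the control JUND library held 7558614 tags and the siRAD21 library 15263937, a ratio of 2.02. Before removal the totals were 8763471 and 24786292, of which 14.0% and 38.0% were repeated. The rabbit IgG libraries ran the other way, from 8916252 tags in control cells to 4101535 after RAD21 siRNA. The JUND library was thus 0.848 times as deep as its background under control siRNA and 3.72 times as deep under RAD21 siRNA. The part of these depths in the results below was not tested.

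JUND peaks were more numerous and held more of the library under RAD21 siRNA. Peak number rose 2.63-fold against a 2.02-fold deeper library. Control peaks covered 6.12 Mb and held 1.83% of the library, and siRAD21 peaks covered 19.2 Mb and held 4.09%. Peaks with a significance score (10 times the negative log10 of p) of at least 100 numbered 1070 and 4692, a ratio of 4.39. By the deposited false discovery rate (FDR), estimated by MACS, the peak caller, after swapping the JUND and IgG libraries, no control peak lay under 5% and 718 siRAD21 peaks did. Control values ran from 9.19% to 26.9%. Under RAD21 siRNA 11474 of the 12319 peaks (93.1%) carried the same FDR of 6.19%, so FDR did not rank most of that list. Tags, scores, fold enrichments and FDR of peaks are the authors' own values.

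Most JUND peaks differed in place between the siRNAs. A siRAD21 JUND peak overlapped 1642 of the 4678 control peaks by at least 1 bp, 35.1% (95% Clopper-Pearson interval 33.7 to 36.5), and these are called kept. The other 3036 control peaks, 64.9%, are called lost. Over all 11 targets 49.4% of control peaks were kept, a share weighted by long lists such as H3K4me1 (74.3%) and CTCF (63.1%). RAD21 (46.6%) and REST (69.1%) also lay above JUND. HNF4A (33.4%), MYC (28.9%), SMC3 (28.4%), NIPBL (17.4%), RFX2 (13.2%) and KLF5 (10.2%) lay below it. In the siRAD21 list 1643 peaks overlapped a control JUND peak and 10676 did not. The latter, called new, made up 86.7% (86.0 to 87.3), against 26.9% of siRAD21 peaks over all 11 targets. The new share was 76.3% for RFX2, 66.3% for NIPBL and 54.9% for KLF5, and lower for the remaining targets. These new shares are not on equal terms, since a list longer than its control list has more peaks that can lack a partner. The siRAD21 list was 2.63 times as long as the control list for JUND. For the other targets this ratio ran from 0.229 (KLF5) to 1.07 (REST). Intervals cover counting error only, and peaks are not replicates of a treatment. With siRAD21 peaks of FDR under 5% alone, the kept share of control peaks was 3.61%, and 551 of those 718 siRAD21 peaks (76.7%) were still new.

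Kept peaks were the stronger ones of the control list. Kept control peaks had a median of 34.0 tags (quartiles 24.0 to 50.0), lost ones 19 (14 to 29). They were also wider, with a median of 1412 bp against 1106 bp. The fold enrichment over background ran the other way, at 6.64 for kept and 7.30 for lost peaks. Of the 1748 control peaks under 20 tags, 12.9% were kept. The share was 53.6% of 1131 peaks from 30 to 49 tags and 74.6% of 59 peaks with 100 tags or more (61.6 to 85.0).

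New peaks were not only the weakest of the siRAD21 list. Their median of 38.0 tags (quartiles 25 to 63) lay below the 52.0 of kept siRAD21 peaks (35 to 79), with broad overlap. Of the 1458 siRAD21 peaks under 20 tags, 96.7% were new. Of the 1093 peaks with 100 tags or more, 848 were still new, 77.6% (75 to 80.0). These 848 peaks had no counterpart in the control list, whose own lowest value was 10 tags. The libraries differed in depth and IgG background, and whether the control library could have called such peaks was not tested. Scaled by library depth, 10619 siRAD21 peaks reached 10 tags, and 85.1% of these were new. Of the 4911 that reached the control median of 24.0 tags after scaling, 4016 were new (81.8%).

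**Figure D1:**
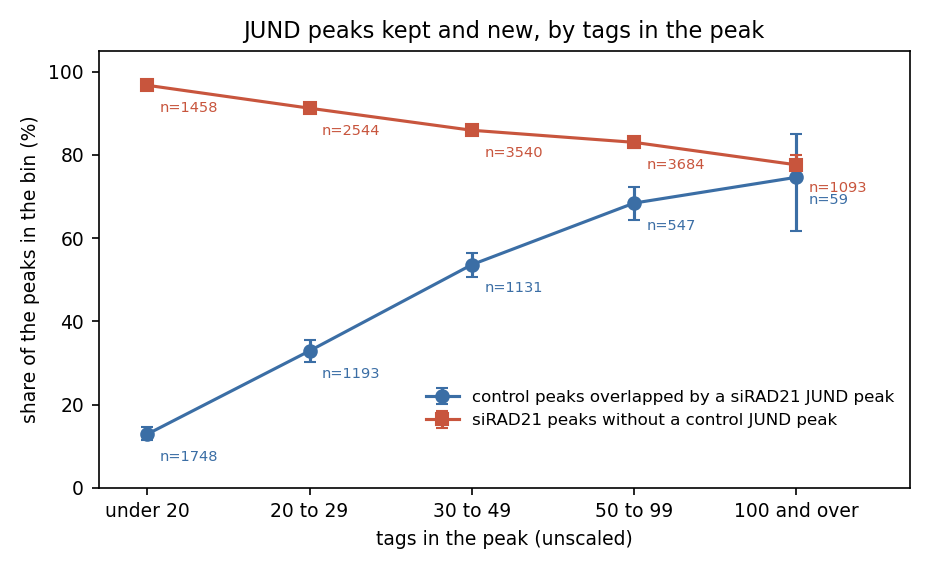
Share of JUND peaks that were kept (control list, circles) or new (siRAD21 list, squares) in bins of tags per peak, with 95% Clopper-Pearson intervals and the number of peaks per bin. The kept share climbs from 12.9% to 74.6%, whereas the new share is still 77.6% among siRAD21 peaks with 100 tags or more.

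Lists of equal length gave the same picture. The 4678 siRAD21 peaks with the most tags had 50 tags or more, with 32 of the 131 peaks at exactly 50 tags taken by significance. They overlapped 864 control peaks, so the kept share was 18.5% (17.4 to 19.6). Over all 11 targets, each with its longer list cut to the length of the shorter, it was 69.4%. That pool was weighted by long lists such as H3K4me1 (80.9%) and CTCF (79.7%). New peaks numbered 3818 in this list, 81.6% (80.5 to 82.7), against 30.7% over all targets. By target the new share was 77.0% for RFX2, 70.5% for KLF5 and 70.3% for NIPBL, and lower for the remaining ones. The kept share of JUND was below that of RFX2 at 23% (20.6 to 25.5), KLF5 at 28.9% (26.8 to 31.1) and NIPBL at 29.5% (28.3 to 30.6), and below those of the other 7 targets. For all other targets but REST the control list was the longer one and was cut to its strongest peaks. For JUND the siRAD21 list was cut, and all control peaks stayed, weak ones included. The part of this in the lower kept share of JUND was not tested. ChIP depth fell for RFX2, KLF5 and NIPBL, to 0.481, 0.355 and 0.352 times that of the control.

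The top of both lists held mostly different sites. Of the 250 control JUND peaks with the most tags, 173 (69.2%) overlapped some siRAD21 peak, but only 40 (16%, 11.7 to 21.1) overlapped one of the 250 siRAD21 peaks with the most tags. For the top 1000 the numbers were 656 (65.6%) and 197 (19.7%). From the other side, 187 of the top 250 siRAD21 peaks overlapped no control JUND peak at all (74.8%). Such top lists were drawn for JUND alone, so whether this low agreement is particular to JUND was not tested.

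**Figure D2:**
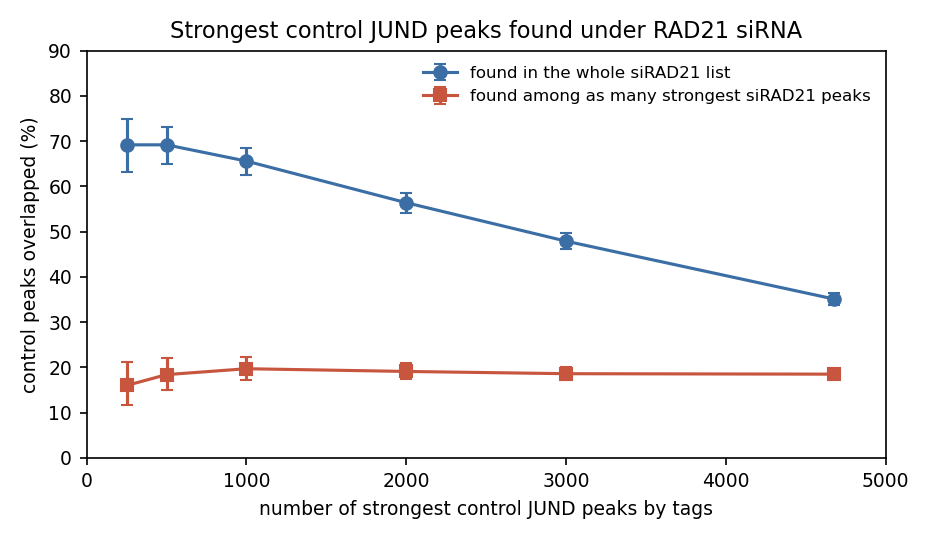
Control JUND peaks overlapped by a siRAD21 JUND peak (vertical axis, % with 95% Clopper-Pearson intervals) for growing numbers of the strongest control peaks by tags. Against the whole siRAD21 list (circles) the share falls from 69.2% to 35.1%, and against as many of the strongest siRAD21 peaks (squares) it stays between 16% and 19.7%.

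At kept sites the position of the peak was alike in both libraries. Of 1631 pairs in which each peak was the other's strongest partner, 1275 had summits within 250 bp (78.2%), and the median distance was 87.0 bp. The median peak of these pairs held 34.0 tags in the control library and 52.0 in the siRAD21 library, or 4.50 and 3.41 tags per 1000000 library tags. The ratio of siRAD21 to control tags per 1000000 library tags had a median of 0.743 (quartiles 0.562 to 0.987), and 391 pairs (24.0%) lay above 1. Median fold enrichment was 6.64 and 7.31. Across pairs, Spearman's rho was 0.685 for tags, 0.583 for width and 0.235 for fold enrichment. These are descriptions, since all 1631 points share the same pair of libraries and backgrounds and were chosen for having a peak in both.

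**Figure D3:**
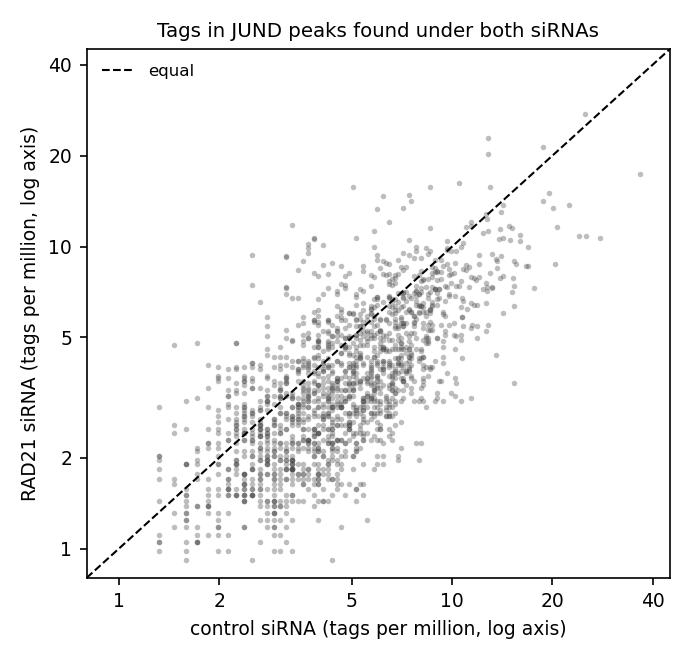
Tags per 1000000 library tags in 1631 pairs of JUND peaks found under both siRNAs, 1 point per pair, both axes logarithmic, with a dashed line of equality. Most points lie below the line, and 24.0% lie above it.

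New JUND peaks, like control JUND peaks, mostly lay where other targets were already found under control siRNA. Of the 10676 new peaks, 9461 overlapped a control peak of at least 1 of the other 10 targets, 88.6% (88.0 to 89.2), against 67.3% for the new peaks of all 11 targets. That pool includes JUND itself and 9476 new H3K4me1 peaks, which H3K4me1 cannot hold and of which 34.4% were held. For kept siRAD21 JUND peaks the share was 97.1% (96.1 to 97.8), and for lost control peaks 84.7% (83.4 to 86.0). Without H3K4me1, whose regions are broad, 7122 new JUND peaks were held by another target, 66.7% (65.8 to 67.6), against 51.4% over all 11 targets, 87.5% of kept siRAD21 peaks and 67.9% of lost peaks. The share at new peaks was thus close to that at lost peaks, and both lay below that at kept peaks. Over all control JUND peaks the held share was 89.0% (88.1 to 89.9), and 74.8% (73.5 to 76.0) without H3K4me1. Being held by another target was therefore not particular to new JUND peaks. The share depended on how close the peaks had to be. With summits within 250 bp, 52.5% of new JUND peaks were held by another target.

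By overlap with any other target, new peaks of NIPBL came nearest to those of JUND, with 83.9% (82.7 to 85.0) at sites held by another target and 63.7% (62.2 to 65.2) without H3K4me1. New RAD21 peaks had 78.7% and, without H3K4me1, 64.0% (62.2 to 65.9), the value nearest to JUND on that measure. In the same order, new MYC peaks had 76.7% and 47.6%, and new HNF4A peaks 76.6% and 53.3%. Median widths were 1349 bp for new JUND peaks, 963 bp for NIPBL and 1062 bp for RAD21, and wider peaks overlap more by position alone.

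By overlap, the held share was higher among new peaks with more tags, which were also wider. It was 66.3% of 1410 new JUND peaks under 20 tags, 91.5% of 3042 peaks from 30 to 49 tags and 98.5% of 848 peaks with 100 tags or more. Without H3K4me1 the same classes had 39.4%, 67.4% and 89.5%. In the list of equal length 97.4% of the 3818 new peaks were held, and 83.0% without H3K4me1. The median width there was 2063 bp, against 1349 bp for all new peaks. With the JUND summit inside the other peak, the share was 87.8% in the list of equal length and 82.2% over all new peaks, and without H3K4me1 78.2% and 63.4%. Among the 551 new peaks with FDR under 5%, 539 were held (97.8%).

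H3K4me1, the enhancer mark, was by overlap the target most often found at new JUND peaks. Its control regions, which covered 6.84% of the effective genome, overlapped 8279 of them, 77.5% (76.7 to 78.3). It was found at 91.5% of kept siRAD21 peaks and 75% of lost peaks. The order of new and lost peaks turned when the JUND summit had to lie inside the region, at 59.2% of new (58.3 to 60.2), 73.4% of lost (71.8 to 75) and 82.7% of kept siRAD21 peaks. By this measure MYC, at 55.9%, passed H3K4me1, at 52.5%, among the new peaks of the list of equal length. For 2339 new peaks (21.9%) H3K4me1 was the sole other target, the most frequent combination. Under RAD21 siRNA H3K4me1 overlapped 86.7% of new JUND peaks but 64.8% of lost ones. Of the 8279 new peaks with H3K4me1 under control siRNA, 96.1% had it under RAD21 siRNA as well. The mark was also found under RAD21 siRNA at 54.3% of the new JUND peaks that had lacked it.

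MYC came second by overlap. Its control peaks covered 0.910% of the effective genome and overlapped 3987 new JUND peaks, 37.3% (36.4 to 38.3), against 61.2% of kept siRAD21 peaks and 36.0% of lost peaks. H3K4me1 with MYC and no other target was the most frequent pair, at 944 new peaks (8.84%). MYC was more frequent at stronger new peaks, from 12.1% under 20 tags to 70.8% at 100 tags or more. Of the new JUND sites held by MYC under control siRNA, 59.7% (58.1 to 61.2) had MYC under RAD21 siRNA too. At lost JUND sites held by MYC, 10.3% (8.52 to 12.2) did.

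The cohesin loader NIPBL and the factor HNF4A, a nuclear receptor of intestinal epithelium, were found under control siRNA at smaller shares of new than of kept or lost sites. NIPBL control peaks overlapped 20.2% of new JUND peaks but 59.3% of kept siRAD21 peaks and 39.5% of lost ones. Under RAD21 siRNA NIPBL was found at 30.6% of new (29.7 to 31.5), 31.6% of kept siRAD21 (29.4 to 34.0) and 4.18% of lost JUND peaks. HNF4A control peaks overlapped 12.4% of new, 35.7% of kept and 25.4% of lost JUND peaks. Under RAD21 siRNA HNF4A was found at 21.4% of new, 26.6% of kept siRAD21 and 7.31% of lost peaks. KLF5, a factor of the proliferating crypt whose siRAD21 list was short, fell from 15.5% to 6.36% at new peaks and from 20.6% to 1.65% at lost peaks.

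Under control siRNA, cohesin was found at a smaller share of new JUND peaks than of kept or lost ones, and under RAD21 siRNA at a larger share. RAD21 or SMC3 was found under control siRNA at 27.6% of new peaks (26.8 to 28.5), 50.8% of kept siRAD21 peaks (48.3 to 53.2) and 41.7% of lost peaks (39.9 to 43.5). RAD21 peaks lay at 2130 of the 10676 new peaks, at 37.1% of kept and at 30.9% of lost peaks. SMC3 peaks lay at 24.5%, 43.5% and 35.2%. Under RAD21 siRNA, RAD21 or SMC3 was found at 26.8% of new (25.9 to 27.6), 21.5% of kept siRAD21 (19.5 to 23.6) and 7.71% of lost peaks (6.78 to 8.71). RAD21 peaks alone were at 22.1%, 17.2% and 6.75%. At 1161 new JUND sites a RAD21 peak was present under RAD21 siRNA alone, at 936 under control siRNA alone and at 1194 under both. Most new JUND peaks thus had no RAD21 peak under either siRNA taken singly. A RAD21 peak lay at 2130 of the 10676 under control siRNA and at 2355 under RAD21 siRNA.

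CTCF, a DNA-binding protein found at loop anchors and domain borders, was found at similar shares of new and kept peaks under control siRNA and at more of the new ones under RAD21 siRNA. Control CTCF peaks overlapped 24.7% of new, 23.7% of kept siRAD21 and 16% of lost JUND peaks. Under RAD21 siRNA the shares were 27.4% (26.6 to 28.3), 19.2% (17.3 to 21.2) and 11.6%. At new JUND sites held by CTCF, 73.4% (71.7 to 75.1) kept CTCF, and at lost JUND sites 62.0% (57.5 to 66.3). CTCF and RFX2 were the 2 targets called against goat IgG, while the other 8 shared the rabbit IgG libraries of JUND. RFX2 control peaks overlapped 3.43% of new and 1.38% of lost JUND peaks, and REST control peaks 0.937% and 1.91%.

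**Figure D4:**
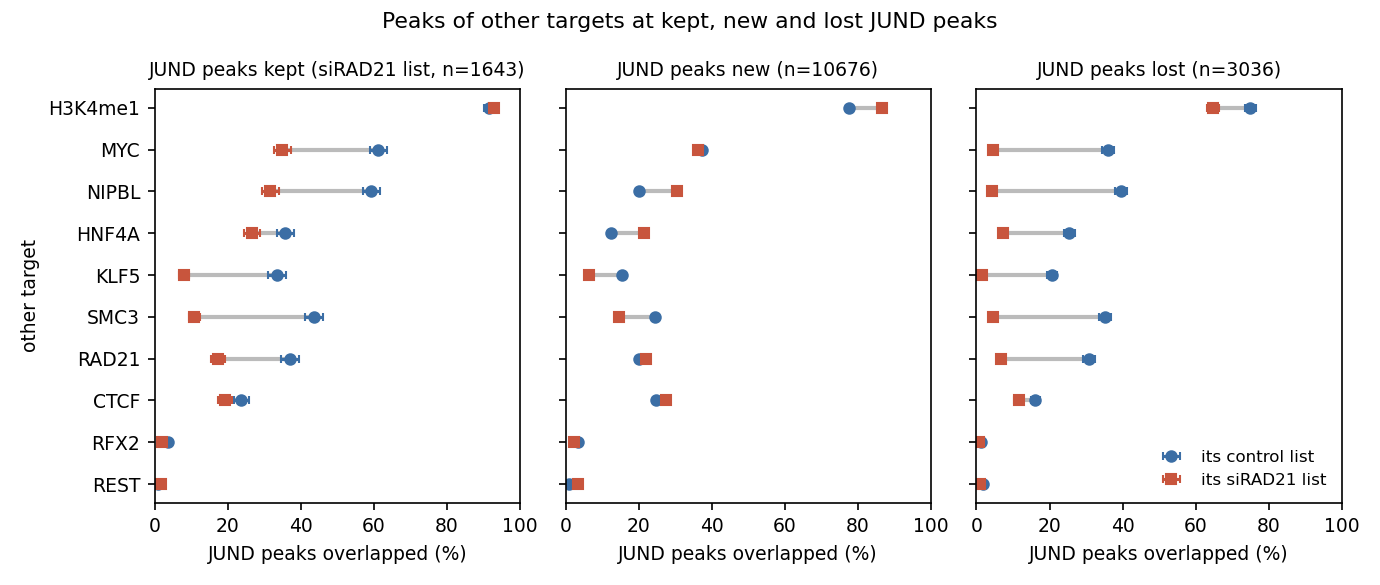
Share of kept (siRAD21 list), new and lost JUND peaks overlapped by each other target, from that target's control list (circles) and siRAD21 list (squares), with 95% Clopper-Pearson intervals. At lost JUND peaks NIPBL falls from 39.5% to 4.18% and MYC from 36.0% to 4.51%, while at new peaks NIPBL rises from 20.2% to 30.6% and MYC stays at 37.3% and 36.2%.

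JUND sites differed in how many targets they held. Kept control JUND peaks had a median of 4 other targets under control siRNA, lost peaks 3 and new peaks 2. At least 4 other targets were found at 55.7% of kept control peaks, 36.5% of lost peaks and 23.8% of new peaks. No other target was found at 2.98%, 15.3% and 11.4%. Under RAD21 siRNA the median was 2 at kept and new peaks and 1 at lost peaks.

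**Figure D5:**
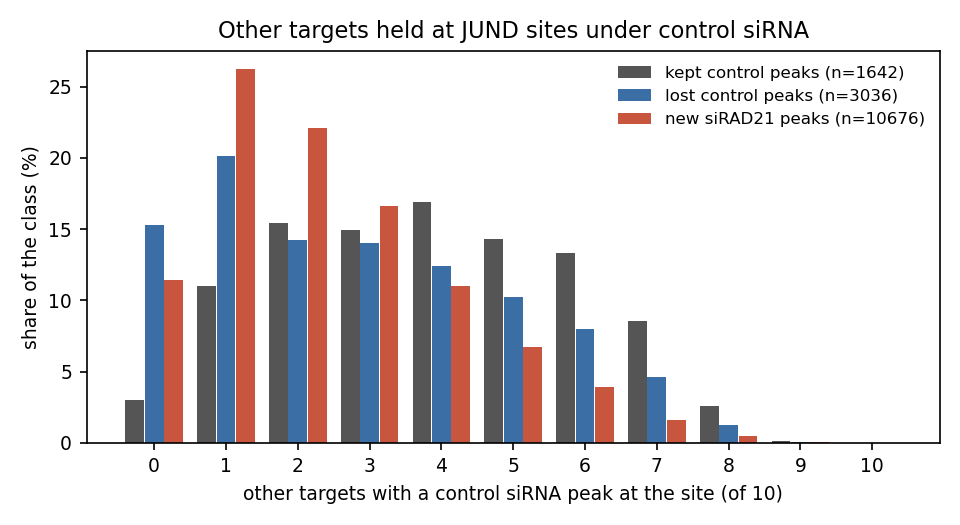
Number of the 10 other targets with a control siRNA peak at each JUND site, as a share of kept control, lost control and new siRAD21 peaks. New peaks are most often held by 1 other target (26.2%), kept peaks by 4 (16.9%).

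New JUND peaks with no control peak of another target numbered 1215. They were weaker and narrower than the held ones, with medians of 22 tags and 957 bp against 41.0 tags and 1420 bp. Under RAD21 siRNA 671 of them (55.2%) overlapped a peak of another target, mostly H3K4me1 (550 peaks), MYC (169) and NIPBL (165). The remaining 544, 5.10% of all new JUND peaks, had no other target under either siRNA.

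The share of other targets' control peaks that were retained differed with the class of JUND peak there. Of 3893 control MYC peaks with a JUND peak under RAD21 siRNA alone, 59.9% (58.4 to 61.5) had a siRAD21 MYC peak. With a JUND peak under control siRNA alone the share was 10.6% (8.84 to 12.6) of 1073, and with no JUND peak 13.4% (12.6 to 14.2) of 7612. NIPBL had 46.6%, 8.01% and 7.77% in these classes, HNF4A 61.6%, 23.7% and 28.5%, and RAD21 58.1%, 22.4% and 46.9%. CTCF had 75.2%, 65.7% and 62.2%. RFX2, which shares the goat IgG with CTCF, had 30.1%, 14.3% and 9%. With a JUND peak under both siRNAs the shares were 46.0% for MYC, 35.7% for NIPBL, 52.5% for HNF4A and 31.2% for RAD21. They were 63.8% for CTCF and 20.8% for RFX2. The share under both lay below that with no JUND peak for RAD21, SMC3 (18.2% against 28.3%) and REST (53.3% of 15 against 69.5%). It lay above for the remaining targets.

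The higher share with a JUND peak under RAD21 siRNA alone also stood among peaks of like significance, for the targets split by score. These were MYC, NIPBL, HNF4A, KLF5, CTCF, RAD21 and SMC3. RFX2, REST and H3K4me1 were not split. The order of the classes with JUND under control siRNA alone and with no JUND peak varied with the score for NIPBL, KLF5 and CTCF. Shares below are for JUND under RAD21 siRNA alone, under control siRNA alone and no JUND peak, in this order. For MYC peaks with a significance score from 50 to 75 the retained shares were 42.6%, 5.22% and 6.58%, and at 200 and above 87.6%, 34.3% and 43.5%. For NIPBL they were 34.8%, 4.82% and 4.03% at the low end and 84.9%, 22% and 48.4% at the high end. For CTCF they were 35.9%, 13.2% and 16.4%, and 94.0%, 88.8% and 85.2%. JUND, MYC and NIPBL were called against the same IgG library under each siRNA, and the part of this shared background was not tested.

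Seen from the other lists, most siRAD21 peaks of MYC and NIPBL had a JUND peak. A JUND peak of the same siRNA overlapped 15.3% of 13589 control MYC peaks (14.7 to 16) and 61.3% of 7264 siRAD21 MYC peaks (60.1 to 62.4). For NIPBL the shares were 18.8% and 63.3%, for KLF5 15.0% and 45.4%, for HNF4A 12.2% and 37.9%. CTCF had 1.95% and 10.1%. Each of these shares was free to grow with the 2.63-fold longer JUND list. Of 61108 control H3K4me1 regions, 3788 held a control JUND peak and 5228 (8.56%) one of the 4678 strongest siRAD21 JUND peaks. A JUND peak can overlap several regions. The new peaks among these strongest siRAD21 peaks had a median width of 2063 bp, against 1211 bp for control JUND peaks. The part of width in the rise was not tested. Regions with a control JUND peak were wider, with a median of 3841 bp against 2326 bp without. For the 4678 strongest siRAD21 JUND peaks the medians were 2804 bp and 2350 bp.

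Single regions show these classes (hg18). They are the strongest by significance in each class, outside chromosome 8. The strongest kept JUND peak lay on chromosome 16 from 88588278 to 88590627, with 182 tags, or 24.1 tags per 1000000 library tags, and a fold enrichment of 14.6. Its siRAD21 counterpart held 165 tags, or 10.8 tags per 1000000 library tags, with a fold enrichment of 7.37. MYC was found there under both siRNAs and NIPBL under control siRNA.

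The next kept peak, on chromosome 7 from 157417609 to 157420117, had 114 tags, and its siRAD21 counterpart 108. No other target was found there under control siRNA, and NIPBL was under RAD21 siRNA. On chromosome 11 from 9736964 to 9738851, 126 and 132 tags were counted, but the significance score was 564 under control siRNA and 57.1 under RAD21 siRNA. RAD21, SMC3 and NIPBL peaks were found there under control siRNA alone and CTCF under RAD21 siRNA alone, while H3K4me1 and MYC were found under both siRNAs. Also on chromosome 11, from 36126862 to 36128541, JUND had 95 and 80 tags, with RAD21, SMC3, CTCF and H3K4me1 under both siRNAs and NIPBL and MYC under control siRNA alone.

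At each of the 4 strongest lost JUND peaks, H3K4me1 was found under both siRNAs and NIPBL and MYC under control siRNA. The strongest lay on chromosome 14 from 54643768 to 54645068, with 95 tags and a fold enrichment of 13.1. The second, on chromosome 3 from 45833847 to 45835407, had 86 tags and 7 other targets under control siRNA, among them RAD21, SMC3, HNF4A and KLF5. Of these 7, H3K4me1 alone had a siRAD21 peak. The third, on chromosome 1 from 152656831 to 152658592, had 92 tags and went from 6 other targets to H3K4me1 alone. The fourth, on chromosome 2 from 229979559 to 229982178, had 67 tags, and MYC was found there under both siRNAs.

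The 4 strongest new JUND peaks all had MYC under both siRNAs and gained NIPBL under RAD21 siRNA. On chromosome 3 from 23931809 to 23934960 JUND had 163 tags, a fold enrichment of 23.7 and a significance score of 819. H3K4me1 and MYC were the other targets under control siRNA, and RAD21, SMC3, NIPBL and HNF4A joined them under RAD21 siRNA. On chromosome 1 from 152458567 to 152461277 JUND had 152 tags, with the same pair before and RAD21, SMC3 and NIPBL added after. The peak on chromosome X from 21767069 to 21768600 had 117 tags and a fold enrichment of 39.8, the highest of the list. SMC3 and MYC were found there under control siRNA, and RAD21, NIPBL and REST joined under RAD21 siRNA. On chromosome 5 from 132413862 to 132417086 JUND had 186 tags, and NIPBL and KLF5 were added to H3K4me1 and MYC.

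A few strong new peaks lay where no target, JUND included, had a control peak within 1000 bp. On chromosome 16 from 1952207 to 1955695 JUND had 120 tags, with SMC3, NIPBL, H3K4me1 and MYC under RAD21 siRNA. On the same chromosome from 8622531 to 8624123 it had 72 tags, with RAD21, NIPBL and H3K4me1. On chromosome 6 from 37773585 to 37774521 it had 96 tags, with CTCF and H3K4me1. All 3 regions had H3K4me1 peaks under RAD21 siRNA alone.

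At the other end, 3 new JUND peaks lay at sites held by 9 of the other 10 targets under control siRNA, all but REST. On chromosome 19 from 11406675 to 11408583 JUND had 78 tags, and 9 targets were found under RAD21 siRNA as well, with REST in place of KLF5. On chromosome 11 from 117627399 to 117628817 it had 58 tags, and of the 9 H3K4me1 alone was found again. On chromosome 17 from 78439481 to 78442336 it had 128 tags but a fold enrichment of 3.38, with NIPBL, H3K4me1 and MYC under RAD21 siRNA.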

How the data were processed

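Chromatin of 28 GP5d samples was immunoprecipitated and sequenced, and 22 libraries had peak lists. CASAVA 1.4, BWA, MACS 1.4 and the build hg18 are named in the submitters' processing notes. The authors called peaks in each library with MACS 1.4.0rc2 with IgG from the matching host and siRNA as background, a p cutoff of 1e-05 and 1 tag kept per position, per the file headers. Per the file headers, each peak has a count of tags, a score (10 times the negative log10 of p), a fold enrichment (a linear ratio) and an FDR in percent. These deposited tag counts are unscaled. The FDR is the last, unnamed column, read as such because its number of values under 5 equals the labels' number of peaks.

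Overlaps, shares and Clopper-Pearson intervals were computed with Python 3.11.15, numpy 2.4.6, pandas 2.3.3 and scipy 1.17.1. The overlap code was checked on simulated peaks. Kept, lost and new peaks rest on overlap by at least 1 bp. Covered shares refer to the effective genome of 2.75e+09 bp in the headers. Where a peak met several partners, the one of highest significance was taken. Named regions are, outside chromosome 8, the 4 strongest kept, lost and new peaks by significance, the 3 strongest new peaks without any control peak within 1000 bp, and the 3 new peaks held by the most targets. For lost and new regions, no JUND peak of the other list lay within 1000 bp. The members and lists were chosen with earlier results of these data known. No hg18 genome or annotation was used, so sequences, motifs and gene names are not given.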

Additional observations from a re-analysis of the deposited data

How the results depend on the processing

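No paired analysis was possible because each target had 1 library per siRNA. With summits within 250 bp, the kept share of control JUND peaks was 27.4% and the new share of siRAD21 peaks 89.6%, and at equal list length they were 13.7% and 86.3%. With a significance score of at least 100 in both lists they were 32.5% and 92.5%. With siRAD21 peaks of FDR under 5% alone they were 3.61% and 76.7%, where 718 siRAD21 peaks were set against 4678 control peaks. With siRAD21 peaks that reached the lowest control tags after depth scaling, the new share was 85.1%. Ranked by fold enrichment, lists of equal length gave 15.5% kept and 84.5% new. The share of new JUND peaks held by another target, with and without H3K4me1, was 52.5% and 45.6% by summits within 250 bp and 82.2% and 63.4% by the JUND summit inside the other peak. It was 81.3% and 58.6% with other targets' peaks of FDR under 5%, which leaves out all control NIPBL peaks, and 97.4% and 83.0% in the list of equal length. For new peaks with a significance score of at least 100 it was 95.3% and 77.5%. The cause of these differences was not tested. The remaining alternatives moved no share beyond its counting interval. They were overlap of 50% of the shorter peak, ranking by significance or tags per kb, no control JUND peak within 1000 bp, depth scaling for the kept share, and assigned chromosomes only, the last chosen after seeing the data. The motif at JUND summits was not run without an hg18 genome. A control library of 7558614 tags limits what could be called there, so a new peak is one not detected at that depth and background.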

Other observations

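The gain in JUND peaks was uneven across chromosomes. Against 2.63-fold over the whole genome, the number of peaks grew 3.99-fold on chromosome 19 (174 to 694 peaks), 3.6-fold on chromosome 22 (86 to 310), 3.55-fold on chromosome 16 and 3.47-fold on chromosome 17. It grew 1.90-fold on chromosome 18 (97 to 184) and 1.93-fold on chromosome X (137 to 264). At equal list length chromosome 19 had 276 peaks, 1.59 times its control number, and chromosome X had 71, a ratio of 0.518. Kept shares were closer together, at 40.8% (33.4 to 48.5) on chromosome 19, 32.0% (22.9 to 42.2) on chromosome 18 and 32.8% (25.1 to 41.4) on chromosome X. Other targets also differed between chromosomes. Relative to each target's own overall ratio, chromosome 19 stood at 1.51 for JUND, 1.66 for HNF4A and 1.63 for NIPBL, and at 1.07 for REST. Every target stood above its overall ratio on chromosome 19, so this was not particular to JUND. Chromosome X stood at 0.732 for JUND, 0.676 for NIPBL and 0.693 for HNF4A, and below the overall ratio for every target but RFX2, at 1.09.

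JUND peaks lay closer together under RAD21 siRNA. The median distance to the nearest other JUND summit was 114 kb in the control list and 30.6 kb in the siRAD21 list, and 80.2 kb in the siRAD21 list cut to 4678 peaks. Summits within 10000 bp of another made up 8.47%, 26.3% and 11.7% of these lists. Distances from new JUND summits to those of other targets differed between targets. Within 250 bp lay 69.7% of the 3265 siRAD21 NIPBL partners (median distance 115 bp) and 67.8% of the 3860 siRAD21 MYC partners (122 bp). RAD21, KLF5, SMC3 and HNF4A followed, from 61.9% for RAD21 to 54.9% for HNF4A. The share was 51.8% of the 2930 siRAD21 CTCF partners (236 bp), 44.1% of the 349 REST partners (333 bp) and 42.7% of the 239 RFX2 partners (298 bp). It was lowest for H3K4me1, whose regions are broad, at 17.3% of 9257 partners (820 bp).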
